A study of Mus musculus with 19 samples.

Results

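Ribosome-bound messenger RNA of cortical astrocytes was compared between proestrus and metestrus, a pair of stages of the estrous cycle of female mice. The groups compared hold 11 of the 19 libraries in the study: 3 labelled Pro-Day, here called proestrus, and 8 labelled Metestrus. The other 8, 4 labelled Estrus and 4 labelled Males, were fitted in the same model, so every SE, p-value and interval also draws on the spread within them. The 11 came from females, labelled genotype F, of the Aldh1l1-EGFP/Rpl10a transgenic line JD130Htz on a B6;FVB background, and were collected at 09:00. No treatment beyond the cycle stage is labelled, and ages were not given in the sources used here. The line carries a green fluorescent tag on ribosomal protein L10a under Aldh1l1 sequences, so only ribosomes of cells that express this transgene carry the tag. Tagged ribosomes were immunoprecipitated and their RNA was sequenced, which is known as translating ribosome affinity purification (TRAP). The labels sort the libraries into batches named 2, 3 and 4: batch 2 held 2 proestrus and 2 metestrus libraries, batch 3 held 1 of each, and batch 4 held 5 metestrus libraries. With batch in the model, each difference rests on the 6 libraries of batches 2 and 3, and the batch 4 metestrus libraries, like the estrus and male ones, add only to the estimate of spread. Whether each library is a separate animal is not labelled, so p-values measure the spread between libraries, which may be technical.

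The estrous cycle runs from metestrus through diestrus and proestrus to estrus. Circulating estradiol is low in metestrus and climbs to its peak in proestrus, before the surge of luteinizing hormone and of progesterone in the evening. Astrocytes take up glutamate and potassium, supply neurons with metabolites and cholesterol, and carry receptors for several steroid hormones.

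Of 20644 genes tested, 18024 lay on an autosome and are described here; the 614 X- and Y-linked, 15 mitochondrial and 1991 unplaced genes were fitted with them and left out. Values are the deposited log2 values, and a difference is proestrus minus metestrus on that scale, adjusted for batch. Genes with a mean of at least 7 over all 19 libraries are called abundant (10848 genes) and the others scarce (7176 genes). Bicra at 6.9997 and Zfp143 at 7.0015 were the genes nearest to that line on either side. A gene is said to have risen or fallen where its two-sided limma p was under 0.05 after Benjamini-Hochberg adjustment over the 20644 genes. The deposited values lack 4 directions of variation between libraries, so this model counts too many degrees of freedom (13) and its p-values are too small. A stricter model, with 11 degrees of freedom, also counts those removed directions that lie wholly outside batch. Its adjusted p is given second, and the 95% intervals come from it. The expected number of residual dimensions is 10.1, under its 11, so its p-values and intervals may be too small and too narrow as well; which number is right depends on a removal step that is not described.

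Sequencing depth is unknown. The median deposited value of a library lay between 7.26 and 7.47 over the 11 libraries. All 14 astrocyte markers were abundant, and their mean was 13.80 to 13.87 in the proestrus libraries and 13.70 to 14.33 in metestrus. The 10 neuron markers averaged 12.52 to 12.78 in proestrus and 12.42 to 12.84 in metestrus, so the pulldowns also held neuronal messages. In none of the 9 cell type marker lists did limma call a gene at the adjusted threshold, and 6 of their markers had an unadjusted p under 0.05.

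In proestrus, 42 autosomal genes rose and 131 fell. That is 0.233% and 0.727% of those tested, 0.96% together. The stricter model called 15 higher (0.0832%) and 52 lower (0.289%), 0.372% together. At an unadjusted p of 0.05, 2324 genes passed (12.9%). Fitted alone, the 6 libraries that carry the contrast gave 0 calls in limma and 2203 genes at an unadjusted p under 0.05; none of the genes named here as called kept its call there, and the lowest adjusted p among the 31 named by rule was 0.0725. All libraries of batches 2 and 3 together gave 1 call. A fit of the 11 proestrus and metestrus libraries called 43 genes higher and 122 lower. Within batch 2 both proestrus libraries lay beyond both metestrus libraries, and the batch 3 pair differed in the same direction, for all 173 called genes and for 26.7% of all autosomal genes. The calls were made on these same values, so this is a description. Proestrus and metestrus libraries did not overlap for 171 of the 173, against 8.46% of all genes. Without metestrus library 3, the only one of its stage in batch 3, 74 genes rose and 71 fell. The preponderance of lower genes was absent in that fit, but it remained without proestrus library 3 (35 higher, 111 lower). In fits that leave out a library of batch 2 or 3, the estrus libraries also bear on the difference, through the batch term. Quantile normalization gave 55 higher and 107 lower.

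Calls were rarer among abundant genes. Among genes with a mean under 3, 2.17% were called, and the median standard error (SE) of a difference was 1.17. Between 7 and 9 the call rate was 0.581% with a median SE of 0.32, and between 9 and 11 it was 0.155% with a median SE of 0.23. None of the 2362 genes at or above 11 was called by limma, and 66 of them had an unadjusted p under 0.05. In that most abundant class the 95% interval of the difference lay within 1 log2 unit, a 2-fold change, for 95.6% of genes. The same held for 72.8% of all abundant genes and 1.1% of the scarce ones. For most abundant messages in the pulldowns a change of 2-fold or more between these stages therefore lies outside the interval, which may be too narrow. For most scarce messages the data set no such bound.

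**Figure D1:**
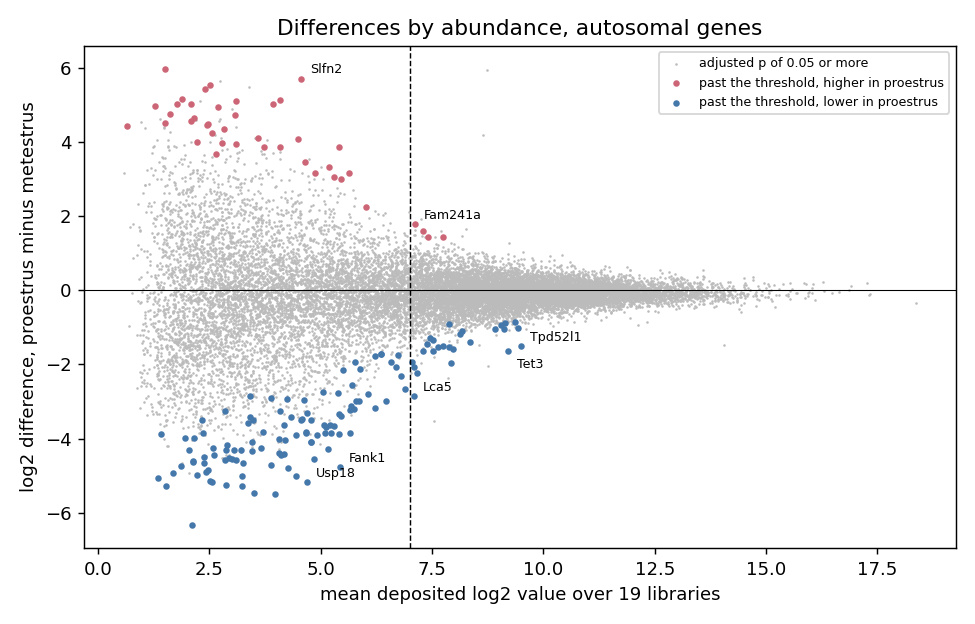
Each point is 1 of the 18024 autosomal genes tested, with its mean deposited log2 value over 19 libraries on the horizontal axis and its log2 difference, proestrus minus metestrus, on the vertical axis. Coloured points passed an adjusted p of 0.05, and the dashed line at 7 separates 30 called abundant genes on the right from 143 called scarce genes on the left.

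Among abundant genes 4 rose (0.0369%) and 26 fell (0.24%), 0.277% together, and their differences ranged in size from 0.86 to 2.86 with a median of 1.47. Median-centring the libraries gave 11 higher and 30 lower, and quantile normalization 9 and 29. In the stricter model 1 rose (0.00922%) and 6 fell (0.0553%), 0.0645% together. The 6 with a symbol of their own were Fam241a, Lca5, Frat2, Tet3, Mettl27 and Tpd52l1, and the other was 1810021B22Rik. Estradiol receptors bind the palindrome GGTCANNNTGACC and its half-site GGTCA. The 300 bases around each start (250 before and 50 after) were read from the RefSeq promoter table, build GRCm38.p6. All 6 genes were in the table, Lca5 with a pair of starts. Only 0.07% of all 32851 promoters held the palindrome, too few for its absence from these 6 genes to be informative. The half-site, read as GGTCA or as TGACC for the other strand, occurred in 40.5% of all promoters and in 1 of these 6 genes, Tpd52l1, with its first base at -241 from the start. Shown here are 3 promoters, 5′ to 3′ on the gene's strand: the only abundant gene that rose in both models, the abundant gene with the largest fall (its first listed start) and the one with a half-site, which is in capitals.
Fam241a, chr3:127896274-127896573, minus strand: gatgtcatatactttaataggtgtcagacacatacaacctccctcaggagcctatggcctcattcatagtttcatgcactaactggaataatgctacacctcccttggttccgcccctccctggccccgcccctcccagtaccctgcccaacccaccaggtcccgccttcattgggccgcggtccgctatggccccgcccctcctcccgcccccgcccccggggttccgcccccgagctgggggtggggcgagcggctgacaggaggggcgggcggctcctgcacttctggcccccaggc
Lca5, chr9:83441078-83441377, minus strand: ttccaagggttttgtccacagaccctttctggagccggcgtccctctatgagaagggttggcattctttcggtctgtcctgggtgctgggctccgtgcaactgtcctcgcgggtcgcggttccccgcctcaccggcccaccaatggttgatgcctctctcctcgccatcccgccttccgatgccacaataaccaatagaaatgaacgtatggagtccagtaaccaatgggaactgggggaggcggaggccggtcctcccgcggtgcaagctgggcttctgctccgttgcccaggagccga
Tpd52l1, chr10:31445909-31446208, minus strand: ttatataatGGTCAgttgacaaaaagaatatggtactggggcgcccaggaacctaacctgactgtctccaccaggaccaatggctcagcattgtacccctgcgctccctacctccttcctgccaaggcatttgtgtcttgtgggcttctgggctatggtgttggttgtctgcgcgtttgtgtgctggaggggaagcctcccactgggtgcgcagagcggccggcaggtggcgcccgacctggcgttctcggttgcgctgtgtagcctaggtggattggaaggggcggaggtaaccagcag
Matches describe these letters alone. The 6 genes' promoters held 13 to 34 CG dinucleotides, and the median over all promoters was 7.

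Fam241a, a small gene of no established function, stood at 8.60, 8.49 and 8.45 in the proestrus libraries. In metestrus its lowest, median and highest values were 5.79, 6.76 and 7.58. Every proestrus library was above every metestrus library, and the 3 were close together. It was 3.44-fold higher (log2 difference 1.78, SE 0.35, 95% interval 0.97 to 2.59; adjusted p = 0.0134, stricter 0.0487). The difference was 2.24 within batch 2 and 0.87 within batch 3. The call was lost without metestrus library 2 (adjusted p = 0.0614), proestrus library 1 (0.0866) or proestrus library 2 (0.0599).

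Kcnk10 encodes TREK-2, a two-pore potassium channel that carries background potassium current in astrocytes. It read 8.05, 8.97 and 8.44 in proestrus, against 6.28 to 7.48 with a median of 6.84 in metestrus. The groups did not overlap, and the difference was 1.60 (SE 0.36, adjusted p = 0.0319), which the stricter model did not call (0.0877). Lcmt2, which completes the wybutosine base of phenylalanine transfer RNA, read 9.10, 9.02 and 8.79 in proestrus and 7.27 to 8.02 (median 7.47) in metestrus. Its difference of 1.44 was alike in batch 2 (1.41) and batch 3 (1.49), with an adjusted p of 0.0422 and a stricter one of 0.112. Spice1, a centriole and spindle protein, read 8.69, 8.48 and 8.66 against 6.66 to 7.67 (median 7.22). It too was higher in every proestrus library, by 1.44 (adjusted p = 0.0354, stricter 0.103). With 1 library left out in turn, Fam241a kept its call in 8 of 11 fits, Kcnk10 in 7, Spice1 in 4 and Lcmt2 in 1.

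Lca5 encodes lebercilin, which works in transport along the cilium. Its proestrus values were 4.44, 6.02 and 3.25, and its metestrus values 6.92 to 7.94 with a median of 7.39. All proestrus libraries were below all metestrus ones, but they lay far apart from each other. The difference of -2.86 (SE 0.50, 95% interval -3.98 to -1.74) was the largest among called abundant genes and passed both models (adjusted p = 0.00772, stricter 0.0276). It was -1.95 in batch 2 and -4.69 in batch 3, and leaving out either library of batch 3 ended the call (adjusted p = 0.0517 without proestrus library 3 and 0.0552 without metestrus library 3). Lca5 was also the only abundant gene called when all 4 removed directions were counted (adjusted p = 0.0254; 0.00922% of abundant genes).

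Frat2, which binds the kinase Gsk3 and takes part in Wnt signalling, read 5.76, 5.49 and 5.75 in proestrus. Metestrus libraries read 7.19 to 8.01 with a median of 7.58. The groups stood well apart, at -1.92 (SE 0.32, 95% interval -2.67 to -1.17; adjusted p = 0.00506, stricter 0.0271). Batch 2 gave -1.97 and batch 3 gave -1.82. Frat2 was the only abundant gene called in all 11 fits that left out 1 library each.

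Tet3, an enzyme that oxidizes 5-methylcytosine in DNA, was among the more abundant called genes, at 8.37, 7.69 and 7.62 in proestrus and 8.99 to 10.35 (median 9.46) in metestrus. It fell by 1.65 on the log2 scale (3.14-fold, SE 0.34; adjusted p = 0.0194, stricter 0.0499). Mettl27, a member of the methyltransferase-like family, read 6.83, 6.47 and 6.46 against 7.62 to 8.54 (median 8.17), a difference of -1.53 (adjusted p = 0.0081, stricter 0.0376). Tpd52l1, of the tumor protein D52 family, read 8.35, 9.25 and 7.20 against 9.48 to 9.99 (median 9.83). For Tet3 and Mettl27 the groups were separate by a clear margin, whereas the second proestrus library of Tpd52l1 came close to the lowest metestrus library. Its difference was -1.5 (adjusted p = 0.0107, stricter 0.0379). Without metestrus library 3 the adjusted p was 0.0701 for Tet3, 0.0511 for Mettl27 and 0.0814 for Tpd52l1, and without metestrus library 1 the calls of Tet3 (0.086) and Tpd52l1 (0.0555) were lost too. Proestrus libraries 2 and 3 also carried the call of Tet3, and 1 and 3 that of Tpd52l1.

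**Figure D2:**
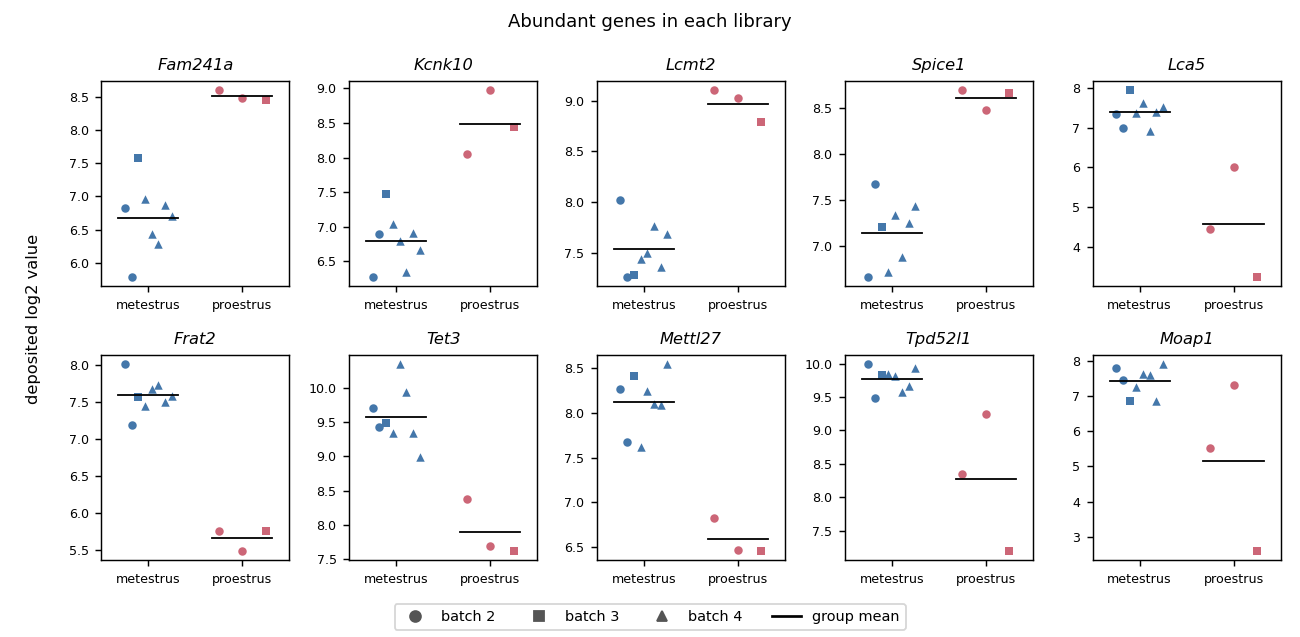
Deposited log2 values of 10 abundant genes in each metestrus (blue) and proestrus (red) library; marker shapes give the batch and lines the group means. Fam241a, Kcnk10, Lcmt2 and Spice1 sit higher in all 3 proestrus libraries, Lca5, Frat2, Tet3, Mettl27 and Tpd52l1 lower, and Moap1 overlaps in 1 proestrus library.

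The other named abundant genes that fell did so in the first model only, with stricter adjusted p-values from 0.0516 (Marchf1) to 0.129 (Bend5). Moap1, a Bax-binding promoter of apoptosis, read 5.53, 7.31 and 2.60 in proestrus and 6.86 to 7.91 in metestrus, so its second proestrus library lay among the metestrus ones. Its difference was -2.24 (SE 0.54, adjusted p = 0.0479). Zswim4, a SWIM zinc finger gene, overlapped in the same library, with 6.36, 7.58 and 4.86 against 7.34 to 8.69. Moap1 and Zswim4 were each called in 2 of the 11 fits that left out a library.

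Ago4, an Argonaute protein that binds small RNAs, read 5.24, 4.98 and 6.14 in proestrus and 6.46 to 8.02 (median 7.46) in metestrus, a difference of -2.08 (adjusted p = 0.0212). Marchf1, a ubiquitin ligase that removes MHC class II from the cell surface, read 6.21, 5.92 and 6.29 against 7.15 to 8.26, and its batch differences of -1.64 and -1.62 were nearly equal. Tfcp2l1, a transcription factor, read 7.01, 5.92 and 7.59 against 8.17 to 8.73. These genes had no overlap between groups. The zinc finger gene Zfp14 (-1.64), the tight junction-associated gene Tjap1 (-1.52), the immunoglobulin-domain gene Vstm5 (-1.45), Spata33 (-1.34) and the BEN-domain gene Bend5 (-1.28) completed the set named by rule, all with separate groups. In the fit of the 11 proestrus and metestrus libraries alone, Moap1 (adjusted p = 0.0945), Zswim4 (0.101), Zfp14 (0.0505), Tjap1 (0.0913), Vstm5 (0.0858) and Bend5 (0.0858) lost their calls, and the other 25 named abundant and scarce genes kept theirs.

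The smallest called differences belonged to more abundant genes. Snap29, a SNARE protein of autophagosome fusion, read 8.70, 8.45 and 8.82 in proestrus and 9.34 to 9.76 in metestrus, a difference of -0.86 (SE 0.20, adjusted p = 0.0354, stricter 0.113). Phc1, a subunit of Polycomb repressive complex 1, differed by -0.93, Gadd45b, a stress-inducible gene, by -1.03, and Smc5, a subunit of the SMC5/6 complex, by -1.18. Pigf, Ovca2, Inip, Zfp60 and Cenpc1 lay between -0.89 and -1.09, and 2610316D01Rik at -1.49; none passed the stricter model. These 10 genes, and 1810021B22Rik at -1.39 (adjusted p = 0.0118, stricter 0.0427), fall outside the naming rule and are listed after their values were seen, which accounts for all 30 called abundant genes. Some uncalled abundant genes had larger differences with a wide spread, such as Raver1 at 4.2 (SE 1.45, adjusted p = 0.218).

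Among scarce genes 38 rose (0.53%) and 105 fell (1.46%), 1.99% together. The stricter model called 14 higher (0.195%) and 46 lower (0.641%), 0.836% together. Their differences ranged in size from 1.71 to 6.34 with a median of 4.02, and 28 of the 143 were called in all 11 fits that left out a library. Many proestrus or metestrus values lay under the minimum of 3.32 used for testing, where the authors' scaling and pseudocount, not given in the sources used here, bear on the size of a fold. A gene could pass the filter through the libraries of 1 stage alone, so for such genes the separation of the stages owes in part to the filter. Less RNA per cell cannot be told apart from fewer cells of a type in such pulldowns.

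Slfn2, a schlafen gene of immune cell quiescence, had the highest proestrus mean (8.60) of the 6 named scarce genes that rose, with 9.20, 7.80 and 8.81 in its libraries. Metestrus libraries read 2.12 to 4.23 with a median of 2.87. Its difference of 5.70 (SE 0.68, 95% interval 4.13 to 7.27) passed both models (adjusted p = 0.000232, stricter 0.00202). Ifi204, an interferon-inducible DNA sensor with close paralogs beside it, among which reads could be split, read 6.15, 6.74 and 5.40 against -0.98 to 1.28. Cd200r1, the inhibitory receptor of myeloid cells for CD200, read 6.61, 7.79 and 4.16 against 0.08 to 1.74. These genes stood at low levels in every metestrus library and well above them in every proestrus library. For Ifi204 and Cd200r1 no metestrus library reached the minimum of 3.32 for testing, which the 3 proestrus libraries met by themselves. Differences were 5.98 for Ifi204 (adjusted p = 0.00194, stricter 0.0141) and 5.01 for Cd200r1 (0.0103, stricter 0.0387). Because Cd200r1 is a myeloid gene, the microglia markers are given beside it: limma called 0 of 8, 1 had an unadjusted p under 0.05, 4 differences were positive and 4 negative, and their mean was 7.5 to 7.97 in proestrus and 7.23 to 8.07 in metestrus.

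Aspn encodes asporin, a small proteoglycan of the extracellular matrix, and read 7.11, 7.21 and 5.92 in proestrus against 0.52 to 1.99 in metestrus. The difference was 5.42 (SE 0.83; adjusted p = 0.00231, stricter 0.0158), nearly the same in batch 2 (5.43) and batch 3 (5.40). Of 5 fibroblast markers limma called 0, also at an unadjusted p of 0.05, and their mean was 6.46 to 7.04 in proestrus and 6.20 to 7.42 in metestrus. Fam217a read 9.24, 7.06 and 7.22 against 1.43 to 4.44. Tcfl5, a basic helix-loop-helix gene known from the testis, read 5.61, 5.74 and 6.91 against 0.56 to 2.14. Both stood apart in all libraries, with differences of 5.13 and 4.64 (adjusted p = 0.0104 and 0.00944, stricter 0.0377 and 0.0387). No metestrus library of Aspn or Tcfl5 reached the minimum of 3.32 for testing, which the 3 proestrus libraries met by themselves.

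Usp18, which removes ISG15 from proteins and restrains the interferon receptor, read 1.26, 0.01 and 0.31 in proestrus and 5.08 to 6.84 (median 5.56) in metestrus. Fank1, a gene of ankyrin repeats known from the testis, read 1.92, -0.07 and 1.81 against 5.25 to 6.51 (median 6.03). Every proestrus library was far below every metestrus library for both. Usp18 differed by -5.18 (SE 0.68; adjusted p = 0.000681, stricter 0.00318) and Fank1 by -4.77 (SE 0.59; 0.000367, stricter 0.00202). Of the 31 abundant and scarce genes named by rule, 6 were still called with all 4 removed directions counted. Their adjusted p was 0.0076 for Slfn2 and Fank1, 0.0103 for Usp18, 0.041 for Ifi204, 0.0437 for Aspn and 0.0254 for Lca5. Outside those 31, Angpt1, Dnah1, Ccnf, Ckap2l and Zfp747l1, described below, were also called there, each at 0.0254.

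Rnase13, a member of the ribonuclease A family, had the largest difference of all called genes, at -3.65, -1.86 and -2.27 in proestrus and 2.15 to 5.01 in metestrus (-6.34, SE 1.11; adjusted p = 0.00772, stricter 0.0277). Antxr2, a receptor that binds matrix proteins and anthrax toxin, read 0.34, -1.40 and -1.75 against 1.48 to 6.70, the widest metestrus range of the 12 named scarce genes. Slc9a4, a sodium-proton exchanger, read -1.72, -1.62 and -1.34 against 1.90 to 4.58. Neurl3, a ubiquitin ligase, read -1.08, -1.51 and -1.13 against 1.97 to 5.22. For these 4 genes the groups did not overlap, and the proestrus values were near the bottom of the scale. No proestrus library of these genes, or of Usp18 and Fank1, reached the minimum of 3.32 for testing. The metestrus libraries met it by themselves, so the separation owes in part to the filter. Antxr2 fell by 5.50, Slc9a4 by 5.05 and Neurl3 by 4.86, all in both models.

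**Figure D3:**
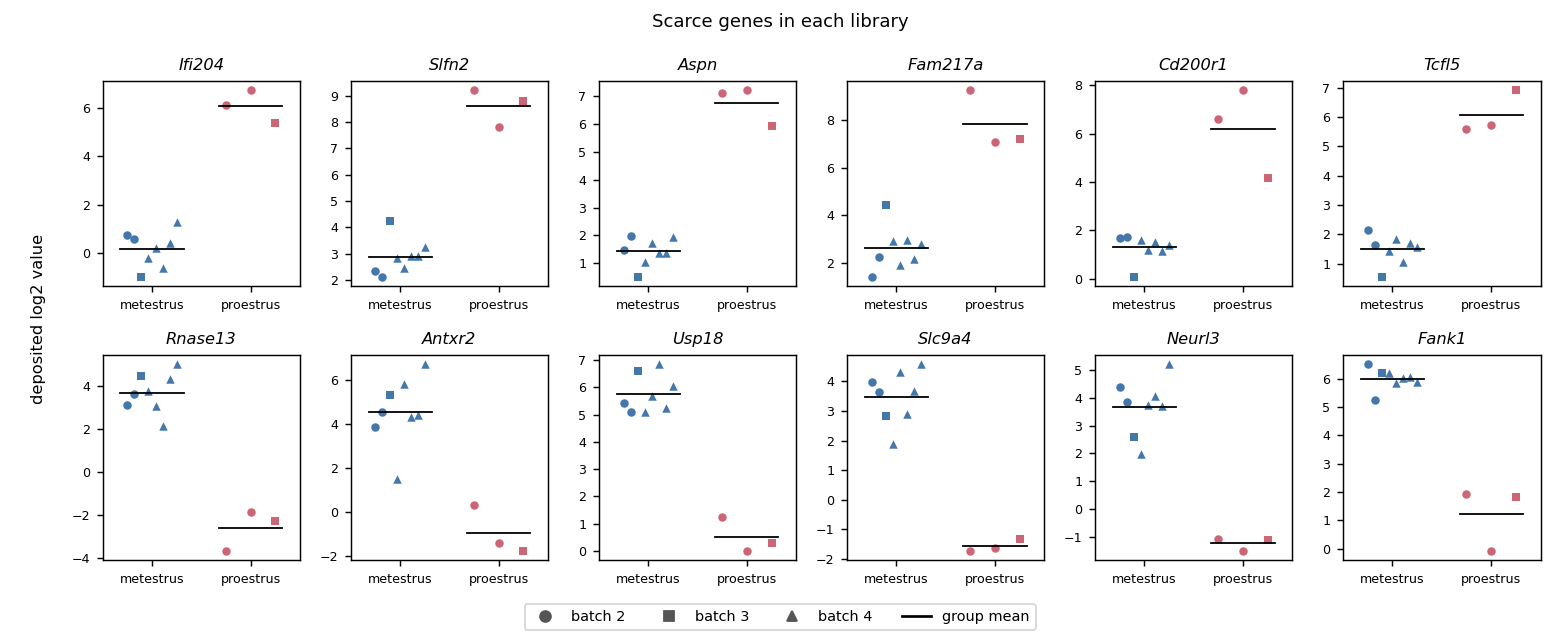
Deposited log2 values of the 12 named scarce genes in each metestrus (blue) and proestrus (red) library; marker shapes give the batch and lines the group means. The 6 genes of the upper row are higher in all 3 proestrus libraries and the 6 of the lower row lower, with no overlap.

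The 41 gene lists, chosen with earlier results of these data known, 32 of functions and 9 of cell types, held 928 autosomal genes tested. Of these 5 rose and 14 fell, 2.05%, against 0.96% of all autosomal genes. In 31 lists no gene was called. The median difference over all autosomal genes was -0.08, and 42.0% of these genes had a positive difference. Counts of signs within a list are to be read against that share.

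The main metabolic and housekeeping work of astrocytes showed no called gene. In 9 lists (glutamate and GABA handling, lipid transport, cholesterol synthesis, fatty acid oxidation, glycolysis with glycogen and lactate, oxidative phosphorylation, ribosomal proteins, glutathione with Nrf2 targets, and metallothioneins with zinc transporters) limma called 0 of 203 genes, and 4 had an unadjusted p under 0.05. For 194 of them the 95% interval lay within 1 log2 unit, and their median difference was -0.02. The lists did not all lean the same way: 20 of 23 glycolysis, glycogen and lactate genes had a positive difference (median 0.15, up to 1.66 for the scarce lactate transporter Slc16a3, adjusted p = 0.304), and 36 of 44 ribosomal protein genes a negative one (median -0.10). The glutamate transporter Slc1a2 read 15.53, 15.55 and 15.91 in proestrus and 15.43 to 16.02 in metestrus, a difference of -0.09 with an interval of -0.52 to 0.34. Glutamine synthetase, Glul, read 15.48, 15.19 and 15.20 against 15.04 to 15.58, a difference of 0.03 (interval -0.41 to 0.48). Both genes overlapped fully between stages. All 44 ribosomal protein genes and all 27 oxidative phosphorylation genes had intervals within 1 log2 unit. Hmgcs1, of the cholesterol pathway, differed by -0.01 (interval -0.59 to 0.58).

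In the list of potassium, water and gap junction genes Kcnk10 was the only one of 19 called, and 17 had intervals within 1 log2 unit. The gap junction gene Gja1 read 13.14, 13.13 and 13.12 in proestrus against 12.90 to 14.07 in metestrus. Its proestrus values lay inside the metestrus range, with a difference of -0.23 (interval -0.90 to 0.44). Among 22 immediate early genes limma called 0, also at an unadjusted p of 0.05, and among 20 circadian clock genes likewise 0 at both. Egr1 differed by -0.19 (interval -1.04 to 0.66) and Nr1d1 by -0.07 (interval -0.52 to 0.37).

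Of 15 sex steroid receptor genes on autosomes, nuclear and membrane, 1 fell and none rose. Esr1, the estrogen receptor alpha, was scarce, at 2.74, 3.75 and 0.64 in proestrus and 5.59 to 7.0 (median 6.25) in metestrus. All proestrus libraries were below all metestrus ones, and the difference was -3.89 (SE 0.69; adjusted p = 0.00772, stricter 0.0277), with -3.04 in batch 2 and -5.58 in batch 3. The orphan receptor Esrrg read 6.84, 6.25 and 4.86 against 6.92 to 8.84, a difference of -1.80 that missed the threshold (0.0811). The progesterone receptor Pgr, which estradiol induces in several tissues, read 9.03, 9.45 and 8.78 against 8.18 to 9.03. Its difference of 0.47 had an interval of -0.11 to 1.04 (adjusted p = 0.441). The membrane progestin receptors Paqr4, Paqr8 and Paqr7 overlapped between stages, with differences of -0.21, -0.37 and -0.28. In neurosteroid synthesis limma called 0 of 14 genes, and 3 had an unadjusted p under 0.05; Srd5a1, the enzyme that reduces progesterone toward allopregnanolone, was at 6.67, 7.73 and 6.45 against 7.69 to 8.52 (-1.14, adjusted p = 0.101).

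Usp18 was the only called gene of 25 that act in interferon responses and antigen presentation. Of the 25, 19 had a negative difference and 5 an unadjusted p under 0.05, with a median of -0.33 against -0.08 over all genes. Interferon-inducible genes outside the list went both ways. Ifi204 was higher (5.98, limma adjusted p = 0.00194). Parp9 (-1.72, limma adjusted p = 0.0212) and Sp100 (-4.32, 0.0335), named after their values were seen, were lower. These lower genes did not pass the stricter model (0.079 and 0.0866). The mean of the list, Usp18 included, was 6.06 to 6.68 in the proestrus libraries and 6.98 to 7.41 in metestrus, without overlap. This was not particular to the list. Glucocorticoid-responsive genes, with 0 of 19 called by limma, averaged 9.49 to 9.64 in proestrus and 9.7 to 9.85 in metestrus. Irf7, a transcription factor of the interferon response, differed by -2.82 (adjusted p = 0.17), and Isg15, the modifier that Usp18 removes, by -0.75 (0.381). Among abundant members B2m, the light chain of MHC class I, differed by -0.34 (interval -0.81 to 0.13) and Ifit3, of the 6 positive members, by 0.30 (interval -0.31 to 0.92). Trib3, a pseudokinase of the integrated stress response, was called higher, at 5.60, 6.76 and 4.57 against 0.87 to 3.02 (difference 4.00, adjusted p = 0.0373, stricter 0.114). It was 1 of 26 genes of the stress list, and the rest were not called.

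Among 32 trophic factors and receptors 2 fell. Angpt1, the angiopoietin that activates the Tie2 receptor of vessels, read 5.16, 5.45 and 3.77 in proestrus and 7.04 to 7.86 (median 7.40) in metestrus. The stages did not overlap, and the difference was -2.67 (SE 0.46; adjusted p = 0.00722, stricter 0.0271), called in all 11 fits that left out a library. Ntf3, the neurotrophin NT-3, read 1.37, -0.50 and 2.30 against 3.88 to 5.0 (-3.43, adjusted p = 0.0441, stricter 0.124). The abundant receptor Ntrk2 differed by -0.08 (interval -0.52 to 0.36).

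The motile and primary cilium lists held 3 falling members and none that rose. Dnah1, an axonemal dynein heavy chain, read 3.61, 2.21 and 3.57 in proestrus and 5.61 to 7.0 in metestrus, and Cfap69, a protein of motile cilia, read 4.46, 4.63 and 1.14 against 5.88 to 7.23. They were the called members among 30 motile cilium genes, at -3.23 (adjusted p = 0.00312, stricter 0.0158) and -3.16 (0.0134, stricter 0.0387). The list's median difference was -0.42, with 19 of 30 members negative. Genes of motile cilia outside the list, named after their values were seen, went both ways. Cfap45 was higher, at 7.94, 7.73 and 6.72 against 1.93 to 6.31 (3.32, adjusted p = 0.0373, stricter 0.0906). In limma Sntn (-2.95, adjusted p = 0.0146), Efhb (-3.99, 0.037) and Cimip2c (-3.41, 0.0311) were lower, and none of them passed the stricter model. Lca5 was the only one of 47 primary cilium genes called, where the median was -0.05. Ependymal cells also bear motile cilia. Of 8 ependymal and choroid plexus markers 7 had a negative difference, with a median of -0.78. limma called 0 of them and 3 had an unadjusted p under 0.05. Their mean was 4.59 to 4.94 in proestrus and 4.09 to 7.20 in metestrus. In the metestrus libraries of batches 2 and 3, which carry the contrast, the mean was 5.28 to 5.46, above every proestrus library. Among these markers Foxj1 read 6.32, 6.53 and 5.63 in proestrus against 6.22 to 7.60 in metestrus. The part of these cells in the cilium differences was not tested.

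Transfer RNA modification genes moved in both directions, with 1 of 57 higher (Lcmt2) and 3 lower. Pus10, a pseudouridine synthase, read 5.41, 5.19 and 4.22 against 6.38 to 8.01 (-2.31; adjusted p = 0.0146, stricter 0.0458). Trmt44 and Adat2, a methyltransferase and a subunit of an adenosine deaminase, differed by -3.20 and -1.92 and passed the first model only. The list's median was -0.04.

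In the cell cycle list 3 of 31 genes fell, all scarce. Ccnf, cyclin F, read 3.07, 1.70 and 2.09 in proestrus and 5.35 to 6.93 (median 6.18) in metestrus, a difference of -3.86 (SE 0.58; adjusted p = 0.00194, stricter 0.00964). Top2a, the topoisomerase of dividing cells, read 1.85, 3.74 and 0.11 against 4.2 to 6.79 (-3.49; 0.0144, stricter 0.0499). Mki67, which marks proliferating cells, read -0.39, -1.11 and 0.49 against 2.87 to 4.95 (-4.31; 0.0293, stricter 0.0841). All 3 were separate between stages. Over the list, 15 differences were positive and 16 negative, and 9 genes had an unadjusted p under 0.05. The largest positive difference, 4.57, was not called. Cell division genes outside the list, named after their values were seen, went both ways. In limma Cdca8 (3.17, adjusted p = 0.023) and Stil (4.76, 0.0231) were higher, Ckap2l (-4.43, 0.00122) and Ncapg2 (-3.62, 0.0314) lower. Of these only Ckap2l passed the stricter model (0.00964). Ccnd2 and Cdk4, abundant regulators of G1, had intervals of -0.52 to 0.39 and -0.37 to 0.37.

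Among 111 zinc finger genes numbered Zfp700 to Zfp999, Zfp879 and Zfp712 rose and Zfp873 fell. Zfp879 read 7.23, 7.77 and 7.95 in proestrus and 5.11 to 5.68 in metestrus, a difference of 2.26 (adjusted p = 0.00722, stricter 0.0357). Zfp712 differed by 3.87 (0.0134, stricter 0.0387) and Zfp873 by -2.80 (0.0107, stricter 0.0381). Zfp747l1, whose symbol falls outside the numbered form and which is named after its values were seen, read 3.52, 3.79 and 2.86 against 5.99 to 7.04 (-2.99; adjusted p = 0.00145, stricter 0.00964) and was called in all 11 fits that left out a library. Zinc finger genes of this kind have close paralogs, among which reads could be split. Of the 111, 66 had a negative and 45 a positive difference, where 42.0% of all autosomal genes had a positive one.

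**Figure D4:**
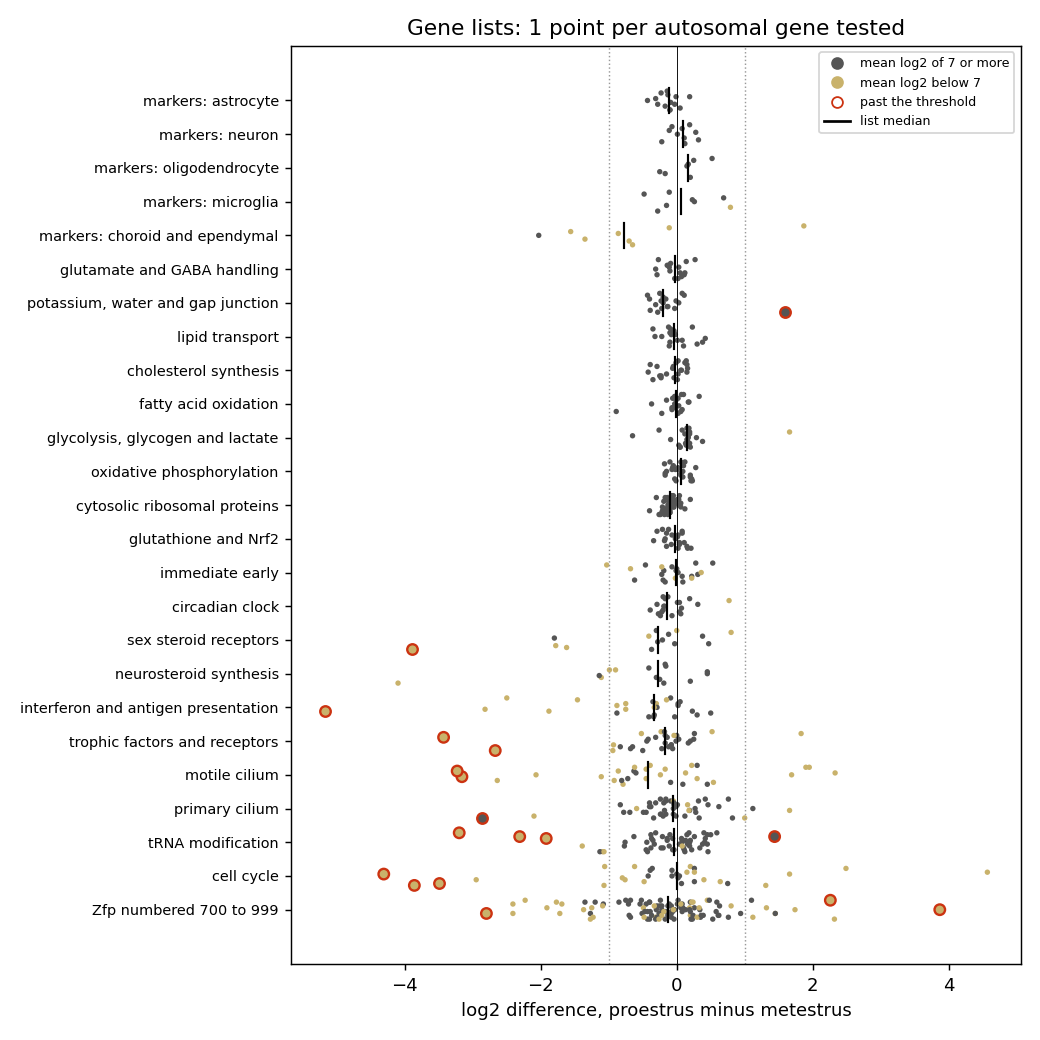
Log2 differences, proestrus minus metestrus, of the autosomal genes tested in 25 of the gene lists, 1 point per gene; grey points are abundant and ochre points scarce genes, red rings mark an adjusted p under 0.05 and black bars list medians. Metabolic and ribosomal lists cluster near 0 between the dotted lines at 1 log2 unit, and the ringed genes are mostly scarce.

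The number of calls moved with single libraries. Without metestrus library 1, abundant calls dropped from 30 to 6 and scarce calls from 143 to 52. Without proestrus library 1 the counts were 8 and 61, and without proestrus library 2 they were 12 and 96. Leaving out metestrus library 5 or 7, both of batch 4, gave 15 and 13 abundant calls. Without metestrus library 3, 20 abundant genes were called higher and 4 lower, the reverse of the balance with it. Of the 31 abundant and scarce genes named by rule, 8 were called in every fit: Frat2, Ifi204, Slfn2, Aspn, Rnase13, Usp18, Slc9a4 and Fank1. Metestrus library 3 ended the call of 18 of the 31, metestrus library 1 of 17, proestrus library 1 of 15, proestrus library 2 of 12 and proestrus library 3 of 11. None of the 31 changed its direction.

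**Figure D5:**
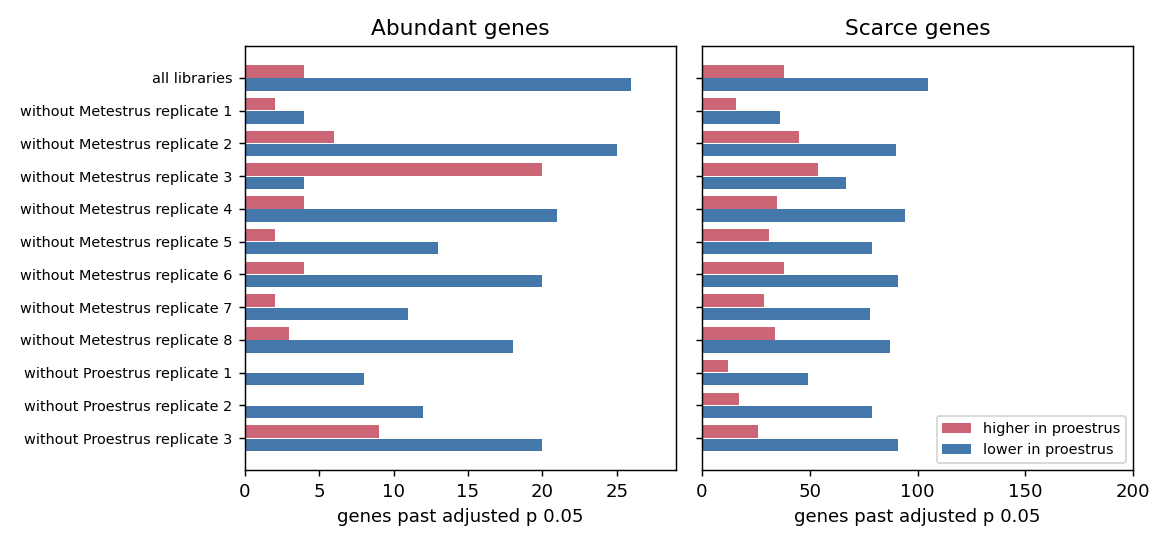
Number of genes past an adjusted p of 0.05 (horizontal axis) that were higher (red) or lower (blue) in proestrus, with all libraries and with each of the 11 libraries left out in turn, for abundant genes on the left and scarce genes on the right. Abundant calls are fewest without metestrus replicate 1, and without metestrus replicate 3 most abundant calls are higher.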

How the data were processed

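Per the submitters' processing notes, the authors used Salmon, STAR and edgeR with genome build GRCm39; scaling, pseudocount, versions and order of steps were not given in the sources used here. The authors deposited 1 table of log2 values for 21749 genes, used as they are; its name refers to surrogate variables. Genes with a value of at least 3.32 in at least 3 libraries were tested. limma 3.58.1 in R 4.3.3 (limma-trend, robust) fitted group and batch to all 19 libraries, two-sided. The stricter model adds the removed directions wholly outside batch; another, added after the data were seen, counts all 4 (9 degrees of freedom). In simulated data of 20644 genes with some genes changed, the first model made 3 to 6 false calls per run among the unchanged genes. The stricter model made 1 to 2. The simulated noise was independent between libraries and the removed directions were fixed beforehand, which need not hold for the deposited values. Chromosomes came from GENCODE identifiers and RefSeq symbols.

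The gene lists, the comparison and the naming rule were chosen with earlier results of these data known. Named genes are autosomal genes with a symbol of their own: up to 15 called abundant genes in each direction, first those past both models and then by size of difference, the 6 largest scarce genes in each direction past both models, and called list members with up to 4 abundant members of a list.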

Additional observations from a re-analysis of the deposited data

Results flagged for a closer look

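The 31 abundant and scarce genes named by rule and the called list members, 46 genes, were checked for a far library. Called genes named after their values were seen were not. Of the 46, 1 had a metestrus library far from the other 7. Cd200r1 read 0.08 in metestrus library 3, the only metestrus library of batch 3, and 1.13 to 1.74 in the rest; its gap to the next library was 0.631 of the range, above Dixon's 95% critical value for 8 samples. Chance alone flags about 1 in 20 such groups, so 1 flag among 46 genes is not above that rate.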

How the results depend on the processing

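With 173 genes called (30 abundant, 143 scarce), leaving out batch gave 973 (325, 648), array weights, whose fit did not converge, 352 (90, 262), a stricter filter 87 (18, 69), the removed directions counted 67 (7, 60) and all 4 of them 16 (1, 15). On the 6 libraries of batches 2 and 3 alone, with 3 residual degrees of freedom, limma called 0 in each class and 0 of the listed genes, with 2203 at an unadjusted p under 0.05; all libraries of these batches gave 1 (0 abundant, 1 scarce). Leaving out 1 library in turn gave 58 to 166 calls, 6 to 31 abundant and 52 to 135 scarce. Splitting at a mean of 8 left 11 abundant calls. Quantile normalization moved the split to 55 higher and 107 lower; without metestrus library 3 it was 74 and 71. Median-centring gave 55 higher and 132 lower in all and 11 and 30 among abundant genes, and of 4644 genes alike within batches 2133 were higher, against 1677 of 4808. No named gene reversed. No paired analysis was possible because the replicate numbers follow accession order and the titles carry none. Few libraries, unknown depth and values altered before deposit limit precision, most for scarce genes.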
